A study of Mus musculus with 6 samples.

Results

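Mmp13, the gene of a secreted collagenase, and Spp1, the gene of osteopontin, were 70.1-fold and 20.9-fold higher in Th17-polarized T cells that lacked Irf4 than in cells that kept an intact copy. These 2 genes were taken by their symbols in the authors' deposited table of results, out of 688 genes named there and 22621 genes and unnamed probes on the arrays. That table is limited to probes that changed over 2-fold with a p-value, not adjusted, under 0.05 between the same samples, so the difference in both genes is given as a description, without a test. The smallest listed change was 2.002-fold, and the largest change of an unlisted probe with a p-value under 0.05 was 1.999-fold. Each gene had 1 listed probe, A_51_P184484 for Mmp13 and A_51_P358765 for Spp1.

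The samples were naive CD4+ T cells, sorted from mouse spleen as CD62L-high and CD25-negative, on the C57BL/6J background. One group was homozygous for the null allele (Irf4 -/-) and the other heterozygous (Irf4 +/-), with 3 samples each, so the controls also carried a mutant allele. Which part of Irf4 was deleted is not stated in the labels. All 6 cultures were kept for 42 h on plate-bound anti-CD3 with anti-CD28, IL-6, IL-23, human TGF-beta and neutralizing antibodies to IL-4 and interferon gamma, the conditions that steer T cells toward the Th17 fate. The design text calls the samples biological replicates, but nothing says whether they came from separate animals, so p-values measure only the spread between these samples.

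T cell RNA carried Cy5 and was hybridised on Agilent arrays against the same Cy3-labelled reference, RNA pooled from 11 mouse tissues. Each value is therefore a log2 ratio of T cell RNA to reference RNA, where 0 means equal signal and a negative value means less signal than the pool. A low ratio can come from little transcript in the T cells or from much transcript in the pool, and ratios of different genes do not rank their RNA levels. Across genes and unnamed probes, arrays correlated at r = 0.914 to 0.961 within the null group, 0.951 to 0.964 within the heterozygous group and 0.885 to 0.94 between groups. Null replicate 3 correlated with null replicate 1 at 0.914, below its 0.933 to 0.94 with the heterozygous arrays. Ratios of exactly 0, which can be failed estimates, made up 0.676% to 5.29% of an array and were most frequent on null replicate 1; neither Mmp13 nor Spp1 had one. The precision of every value is limited by the number of arrays.

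Mmp13 is a matrix metalloproteinase that cuts fibrillar collagens, with type II collagen of cartilage as its best known substrate. It is secreted as an inactive proenzyme, is released by proteolytic removal of its propeptide and is held in check by tissue inhibitors of metalloproteinases. Osteopontin is a secreted phosphoprotein that binds integrins and CD44, is cut by thrombin and by metalloproteinases, and acts both in mineralised tissue and as a cytokine of activated T cells and macrophages. In mouse bone and cartilage cells both genes are known targets of Runx2, and Mmp13 is a classical target of the AP-1 factors Fos and Jun. Irf4 itself is a transcription factor of activated lymphocytes that binds DNA together with Ets family or AP-1 partners.

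Mmp13 lies on chromosome 9 (chr9:7272514-7283333) and Spp1 on chromosome 5 (chr5:104435111-104441053) in the GRCm38.p6 assembly, and both are protein-coding. The promoter windows at their annotated gene starts, 250 bases before and 50 bases after, are shown because both genes differed in the same direction and these windows hold several motifs in common. They are RefSeq sequences on the plus strand, at chr9:7272264-7272563 for Mmp13 and chr5:104434861-104435160 for Spp1. Capitals mark matches to an interferon-stimulated response element (ISRE, a pair of GAAA with 2 free bases between them), a Runx motif (AACCACA), an Ets motif (GGAAGT), an AP-1 motif (TGANTCA) and a TATA box (TATAAA), searched on both strands.
Mmp13: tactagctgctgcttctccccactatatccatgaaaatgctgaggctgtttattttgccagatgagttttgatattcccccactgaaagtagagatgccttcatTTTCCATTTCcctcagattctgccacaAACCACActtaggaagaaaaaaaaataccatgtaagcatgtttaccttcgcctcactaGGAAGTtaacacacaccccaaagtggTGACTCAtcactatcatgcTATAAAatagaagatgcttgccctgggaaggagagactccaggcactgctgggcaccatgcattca
Spp1: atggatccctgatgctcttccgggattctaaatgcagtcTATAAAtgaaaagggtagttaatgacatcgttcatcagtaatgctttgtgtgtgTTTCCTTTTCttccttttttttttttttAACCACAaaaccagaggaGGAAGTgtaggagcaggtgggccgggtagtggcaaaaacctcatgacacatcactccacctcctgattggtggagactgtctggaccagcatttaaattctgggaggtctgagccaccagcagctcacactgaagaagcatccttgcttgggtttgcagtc

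Both windows held an ISRE match, a Runx match and an Ets match, in that order toward the gene start. In Mmp13 the ISRE match spanned bases -146 to -137 from the gene start, the Runx match -119 to -113 and the Ets match -61 to -56. In Spp1 the ISRE match spanned bases -157 to -148, the Runx match -129 to -123 and the Ets match -111 to -106. The ISRE letters were on the opposite strand in both windows, and the Runx and Ets letters on the strand of the gene. Of 32851 promoter windows of this length, 3.44% held the ISRE letters, 5.27% the Runx letters and 23.8% the Ets letters. All 3 were found together in 24 windows, or 0.0731%. Since the Mmp13 and Spp1 windows are shown because they have these motifs in common, nothing is read from that share. The motifs overlapped none of each other in these 2 windows.

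The AP-1 letters were found in the Mmp13 window, at bases -35 to -29, and in 7.81% of all windows. They did not occur in the Spp1 window. Mmp13 also held the TATA letters at bases -16 to -11, and Spp1 held them at -211 to -206, against 13.6% of windows. An E-box (CANNTG), the kind of site that basic helix-loop-helix factors such as Twist1 bind, was found in both windows and in 72.3% of all. The composite of an Ets and an IRF site (GGAA, 2 free bases, GAAA) was in neither window and in 2.72% of all. Composites of an AP-1 and an IRF site were also in neither, with 0.125% of all windows holding GAAA directly before TGANTCA and 0.119% holding TTTC 4 free bases before it. A second annotated start inside Spp1 had a window with E-box letters and none of the other motifs searched. A match says only that the letters are present, and binding was not measured on these arrays.

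**Figure D1:**
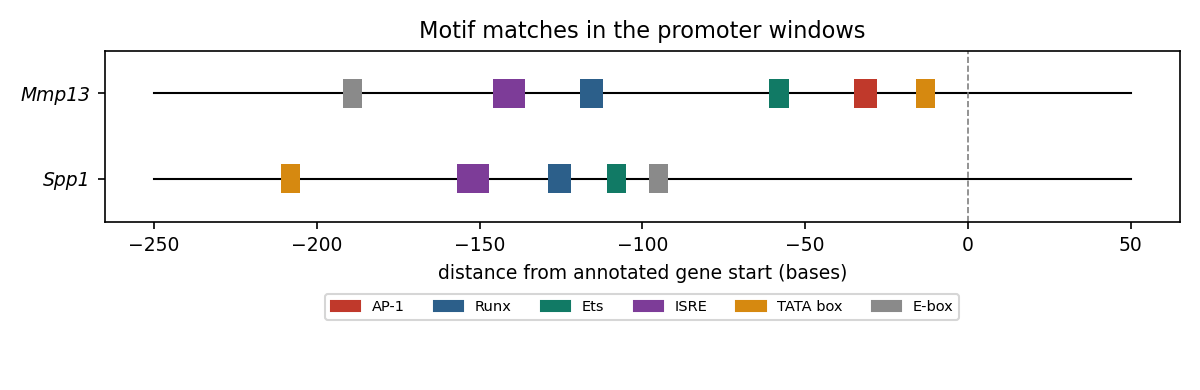
Motif matches in the promoter windows of Mmp13 and Spp1, by distance in bases from the annotated gene start (dashed line); coloured boxes span the matched bases. In both windows an ISRE, a Runx and an Ets match follow each other toward the gene start, and only Mmp13 has an AP-1 match.

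The targeted gene was lower in every null sample. Irf4 had log2 ratios of 0.62, 0.65 and 0.73 on the null arrays, replicates 1 to 3, and of 3.02, 2.85 and 2.93 on the heterozygous arrays. Its groups did not overlap, and the spread within each was small (SD 0.06 and 0.08, n = 3 each). Groups without overlap and with null cells lower were found for 3973 of the 22621 genes and unnamed probes. Transcript was still measured above the reference in the null cells, and the position of the probe relative to the deletion is not stated in the labels or files.

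Mmp13 went from below the reference in heterozygous cells to above it in null cells. Null replicates 1 to 3 had log2 ratios of 3.31, 3.57 and 3.40, and heterozygous replicates 1 to 3 had -2.21, -3.28 and -2.62. The 3 null arrays lay close together and the heterozygous arrays were spread more widely, with replicate 2 the lowest. On the linear scale, null cells gave 9.91 to 11.9 times the signal of the reference pool, whereas the pool gave 4.64 to 9.71 times the signal of the heterozygous cells. Group means were 3.43 ± 0.13 and -2.70 ± 0.54 (SD, n = 3 each), a difference of 6.13 on the log2 scale.

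No pair of arrays brought the Mmp13 groups close. Over the 9 pairings of a null with a heterozygous array, the difference was 46.0-fold to 116-fold. The smallest belongs to null replicate 1 against heterozygous replicate 1. The difference in group means was 57.4-fold without heterozygous replicate 2 and 83.1-fold without heterozygous replicate 1, and leaving out any other array gave a value between these, such as 73.0-fold without null replicate 1.

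Spp1 differed in the same direction but stayed below the reference in both groups. Null replicates 1 to 3 had log2 ratios of -4.17, -4.33 and -4.96, and heterozygous replicates 1 to 3 had -8.71, -9.06 and -8.84. Here the heterozygous arrays lay close together and null replicate 3 was the lowest of its group. The reference pool gave 18.0 to 31.0 times the signal of the null cells and 419 to 532 times that of the heterozygous cells. Group means were -4.49 ± 0.42 and -8.87 ± 0.18 (SD, n = 3 each), a difference of 4.38 on the log2 scale.

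The Spp1 groups were also separated for every pair of arrays, by 13.5-fold to 29.6-fold over the 9 pairings. The smallest belongs to null replicate 3 against heterozygous replicate 1. Without null replicate 3 the difference in group means was 24.6-fold, and without null replicate 1 it was 18.7-fold. In heterozygous cells 3 of the 22621 genes and unnamed probes had a lower ratio to the reference than Spp1, and in null cells 552 had. How far the Spp1 and Mmp13 signals in heterozygous cells lay above array background is unknown, because intensities and background flags were not used here.

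**Figure D2:**
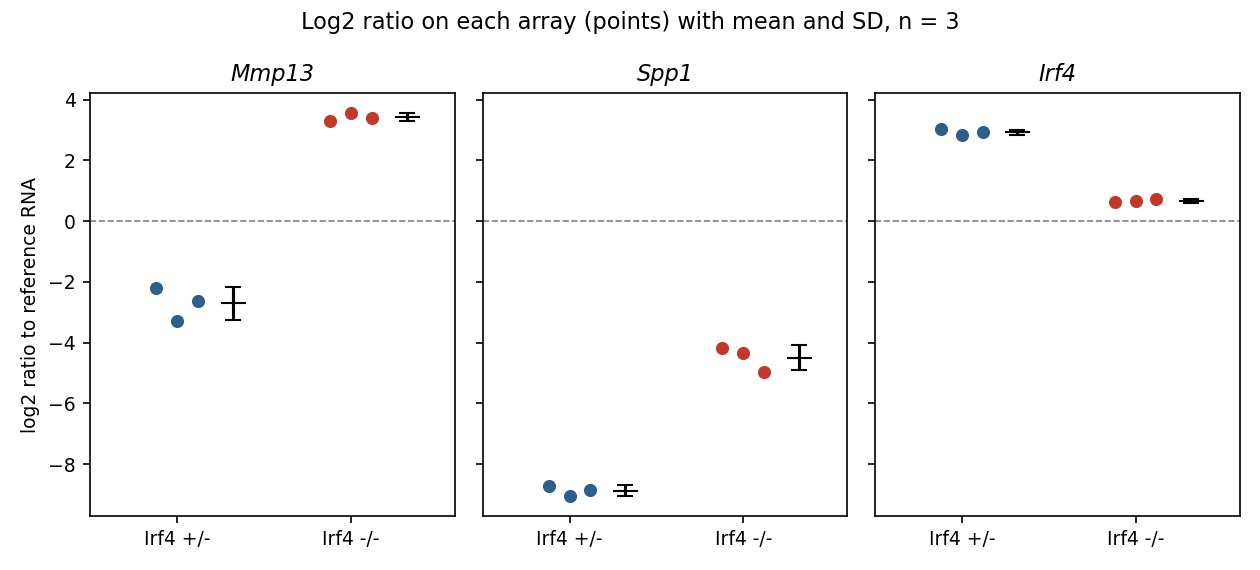
Log2 ratio to the reference RNA on each array for Mmp13, Spp1 and Irf4 (points; replicates 1 to 3 from left to right), with group mean and SD (n = 3) beside them and equal signal as a dashed line. Mmp13 lies above the reference on all 3 null arrays and below it on all 3 heterozygous arrays, whereas Spp1 lies below it on all 6.

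The spread within groups was small beside the difference between them. The pooled within-group SD was 0.39 for Mmp13 and 0.32 for Spp1, against a median of 0.26 over all genes and unnamed probes. The heterozygous SD of Mmp13 exceeded that of 87.5% of them, and its null SD that of 25.0%. For Spp1 the order was the other way, with 46.9% for the heterozygous and 69.8% for the null SD. The array that was lowest for Mmp13 among heterozygous samples, replicate 2, was also lowest for Spp1. Among null arrays the lowest differed, replicate 1 for Mmp13 and replicate 3 for Spp1.

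Among all 22621 genes and unnamed probes, Mmp13 had the largest change in either direction and Spp1 the fifth largest rise. The median difference was -0.05 and the median absolute difference 0.27 on the log2 scale. A rise of at least 16-fold was found for 7, or 0.0309%. Beside Mmp13 and Spp1 these were Ano1, the gene of a chloride channel gated by calcium, the transcription factor gene Twist1, the apolipoprotein L gene Apol7c, Dppa1 and the chemokine gene Ccl1. The groups did not overlap, with null cells higher, for both Mmp13 and Spp1 and for 12.2% of all genes and unnamed probes. Since the 2 genes were chosen on this contrast, nothing is read from that count.

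Position relative to the reference set Mmp13 and Spp1 apart from each other. In 177 genes and unnamed probes the ratio was below the reference on all 3 heterozygous arrays and above it on all 3 null arrays, and 47 of these rose more than 2-fold. Mmp13 and Apol7c were the 2 among them with a rise past 16-fold. A ratio below the reference on all 6 arrays was found for 7887, of which 192 were more than 2-fold higher in null cells. Spp1 and Ano1 were the 2 among these past 16-fold.

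**Figure D3:**
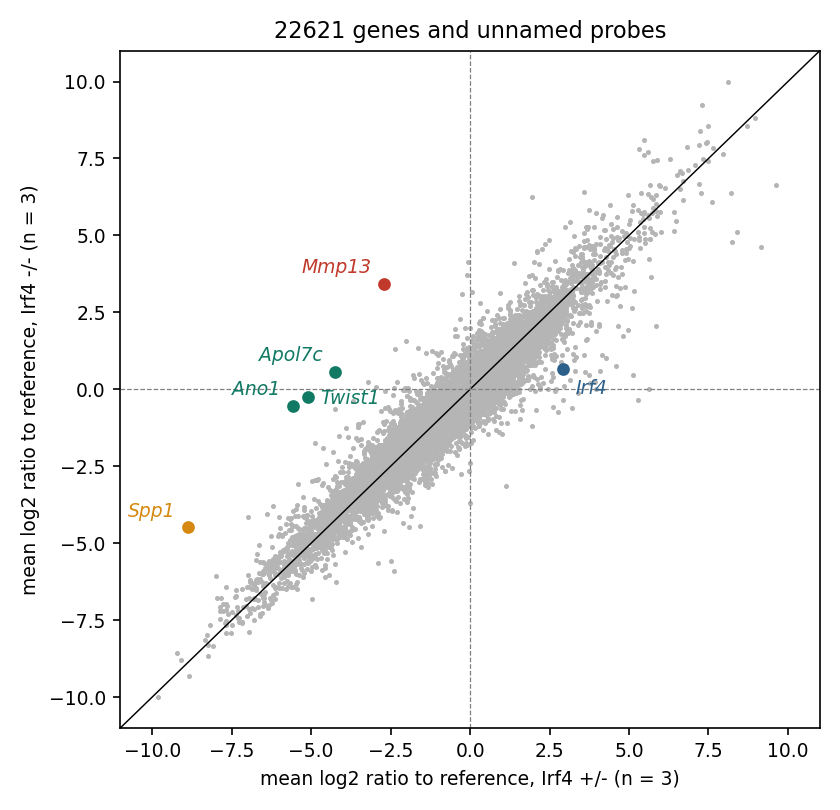
Mean log2 ratio to the reference in heterozygous cells (horizontal) and null cells (vertical) for 22621 genes and unnamed probes, n = 3 arrays per group; the diagonal marks no difference and dashed lines mark equal signal to the reference. Mmp13 lies farthest from the diagonal, in the quadrant below the reference in heterozygous and above it in null cells, and Spp1 lies below the reference in both.

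The genes most like each member were sought among the 688 named genes by Pearson's r over the 6 arrays. For Mmp13 they were Rcan1, the gene of a calcineurin inhibitor, the transcription factor gene Tox, D730045B01Rik, Ptpre, the gene of a receptor-type protein tyrosine phosphatase, and Csf1, which encodes macrophage colony-stimulating factor. Their r with Mmp13 was 0.9964 to 0.9983. For Spp1 they were Dtx4, Vpreb1, Fam3c, Ano1 and again Ptpre, with r of 0.9975 to 0.9988. Since the arrays form 2 separate groups, r is set mainly by the gap between genotypes, and 143 named genes had an r over 0.95 with Mmp13 and 142 with Spp1.

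The 2 members had an r of 0.992 with each other, which placed Spp1 15th in likeness to Mmp13 and Mmp13 18th in likeness to Spp1. A high r did not mean a change of like size. Ano1 was 33.1-fold higher in null cells, Rcan1 2.15-fold, Tox 5.37-fold and Csf1 4.99-fold. Rcan1 had log2 ratios of 1.40, 1.49 and 1.44 in null cells and 0.49, 0.22 and 0.31 in heterozygous cells, with the same array highest and the same lowest within each group as for Mmp13. Ptpre, near both members, had 0.02, 0.05 and -0.10 against -1.98, -2.10 and -2.04. When likeness was instead the distance between centred log2 ratios, which also counts size, Spp1 ranked 4th for Mmp13 behind Ano1, Apol7c and Twist1, and the 5 nearest to Spp1 were Twist1, Apol7c, Ano1, Ms4a6d and Fam110c. With that measure 0 of the 5 genes named for Mmp13 and 1 of the 5 for Spp1, Ano1, were again among the nearest.

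**Figure D4:**
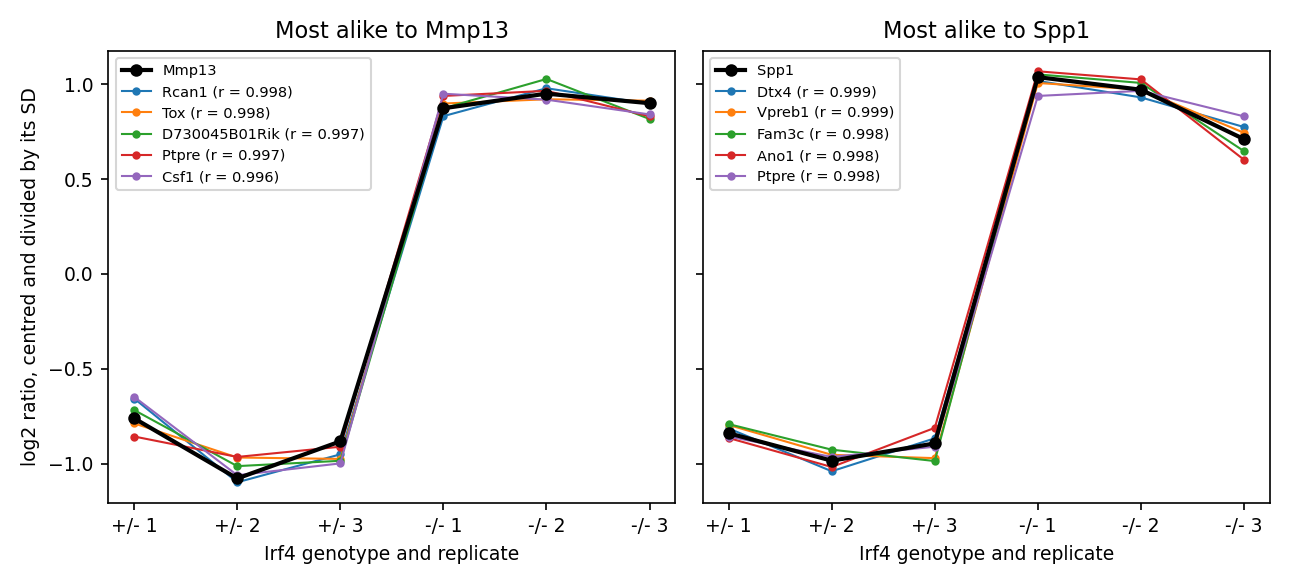
Log2 ratios of Mmp13, Spp1 and the 5 named genes with the highest Pearson's r to each, centred and divided by their SD over the 6 arrays; horizontal positions are the arrays by Irf4 genotype and replicate, and lines only guide the eye. All profiles step up between heterozygous and null arrays, and those of Spp1 and the genes most like it share a lower value on null replicate 3.

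Genes around the proteases, the matrix and osteopontin were examined in 10 lists with 159 genes, of which 14 were named in the authors' deposited table. Probes were named only there, so the other genes have no known value, and each of the 14 had been selected for change on these samples. Of the 14, 6 rose, 3 fell and 5 did not pass a limma Benjamini-Hochberg adjusted p of 0.05. Over all genes and unnamed probes 1.26% rose and 1.17% fell, and of all 688 named genes 189 rose and 168 fell. No member was named for tissue inhibitors of metalloproteinases and related inhibitors (9 genes), osteopontin receptors (10 genes) or the other small integrin-binding glycoproteins (4 genes).

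Of 22 other matrix metalloproteinases 1 was named, and it was lower rather than higher in null cells. Mmp1a, an interstitial collagenase gene, had log2 ratios of 0.14, 0.26 and -0.49 in null cells and 1.23, 0.93 and 1.15 in heterozygous cells. The groups did not overlap, as was the case with null cells lower for 3973 of all 22621 genes and unnamed probes. The difference of -1.13 (SE 0.23, limma adjusted p = 0.0683) did not pass. Mmp1a lies in the metalloproteinase cluster on chromosome 9, as the fourth protein-coding gene after Mmp13. Of the 5 protein-coding genes on either side of Mmp13, 5 encode metalloproteinases (Mmp12, Mmp1b, Mmp3, Mmp1a and Mmp10), and Mmp1a was the 1 of all 10 neighbours that was listed. Around Spp1 0 of 10 neighbours were listed, among them the related glycoprotein genes Mepe, Ibsp, Dmp1 and Dspp. A neighbour not found in the table may lack a probe, have a change short of the authors' 2 limits or be listed without a matched symbol, and these cannot be told apart here.

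Among 29 proteases of the ADAM and ADAMTS families 2 were named, both with higher values in null cells. Adamts4, the gene of an aggrecan-cleaving protease, rose 2.88-fold (log2 difference 1.53, SE 0.21, limma adjusted p = 0.0293). Its ratios were -1.57, -1.31 and -1.08 in null cells and -3.20, -2.73 and -2.61 in heterozygous cells, so it stayed below the reference throughout. Adamts6 had a difference of 1.46 (adjusted p = 0.0605), and with 1 sample left out it passed only without heterozygous replicate 2. Adamts4 did not pass when any 1 of the 6 samples was left out, and had an adjusted p of 0.0508 with quantile normalization and 0.0598 with the methods' test.

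Of 13 genes of activating proteases and the plasminogen and thrombin systems 4 were named, of which 1 rose, 2 fell and 1 did not pass. Furin, the gene of a convertase that activates membrane-type metalloproteinases, fell from 3.78 ± 0.29 to 2.68 ± 0.13 (SD, n = 3 each; limma adjusted p = 0.0443). F2r, which encodes a thrombin receptor, rose 2.03-fold from -2.83 ± 0.06 to -1.81 ± 0.17 (limma adjusted p = 0.026). Procr, the gene of the protein C receptor, fell by 4.26 on the log2 scale and still passed when any 1 of the 6 samples was left out (limma adjusted p = 0.0038 with all samples). Serpine2, the gene of a thrombin inhibitor, had 1.42 (adjusted p = 0.137), and with 1 sample left out it passed only without heterozygous replicate 1. Among the fits that left out a sample, Furin passed only without heterozygous replicate 2 and F2r only without null replicate 3. Furin also lost its call with arrays centred on their medians (adjusted p = 0.0597), with quantile normalization (0.0538) and with the methods' test (0.0706).

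Of 3 named genes of the matrix and of matricellular proteins, 2 rose in null cells and 1 did not pass, and all were below the reference on every array. Col5a2, which encodes a chain of type V collagen, rose 2.97-fold, from ratios of -6.35, -6.83 and -6.70 to -5.17, -4.68 and -5.31 (limma adjusted p = 0.0293). It was the 1 of 20 listed collagens and matrix substrates with a value. Ccn2, the gene of connective tissue growth factor, rose 2.54-fold from -6.69 ± 0.11 to -5.34 ± 0.27 (SD, n = 3 each; limma adjusted p = 0.0244). Tnc, the gene of tenascin C, had a difference of 2.10 (adjusted p = 0.0557), with null replicate 1 at -1.50 and the other two at -0.16 and -0.13, and it passed without null replicate 1. With 1 sample left out Col5a2 never passed, and its adjusted p was 0.0602 with the methods' test; Ccn2 passed only without null replicate 3.

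Of 26 transcription factors known to act on Mmp13 or Spp1, 3 were named, of which 1 rose, 1 fell and 1 did not pass. Whether any of them acts on Mmp13 or Spp1 in these cells was not tested. Twist1, whose protein binds Runx2 and restrains it in mouse bone, rose from ratios of -4.80, -4.84 and -5.65 to 0.09, -0.02 and -0.86 (28.5-fold, limma adjusted p = 0.00667). Null replicate 3 was the lowest of its group for Twist1, Runx2 and Runx3, as it was for Spp1. Runx3, a transcription factor gene of cytotoxic and Th1 cells, fell 4.39-fold, from 1.78, 1.08 and 1.38 to -0.57, -0.73 and -0.86 (limma adjusted p = 0.0121). Runx2, averaged over 2 listed probes, had a difference of -1.19 (SE 0.29, adjusted p = 0.102), with ratios of -1.72, -2.10 and -2.60 in null cells and -0.58, -1.32 and -0.96 in heterozygous cells. Twist1 passed whichever of the 6 samples was left out, though only just without null replicate 2 (limma adjusted p, rounded, 0.05). Runx3 lost its call without null replicate 2 or heterozygous replicate 3.

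Of 15 bone remodelling genes 1 was named. Tnfrsf11a, which encodes RANK, the receptor through which osteoclast precursors are induced to differentiate, rose 3.74-fold from -3.54 ± 0.34 to -1.64 ± 0.44 (SD, n = 3 each; limma adjusted p = 0.0342). Its ratio was -1.13 in null replicate 2 and -1.93 and -1.86 in replicates 1 and 3, all above the heterozygous values of -3.80 to -3.15. Such a lack of overlap, with null cells higher, was found for 12.2% of all genes and unnamed probes. The call was lost whichever of the 6 samples was left out, and with the methods' test (adjusted p = 0.0722).

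**Figure D5:**
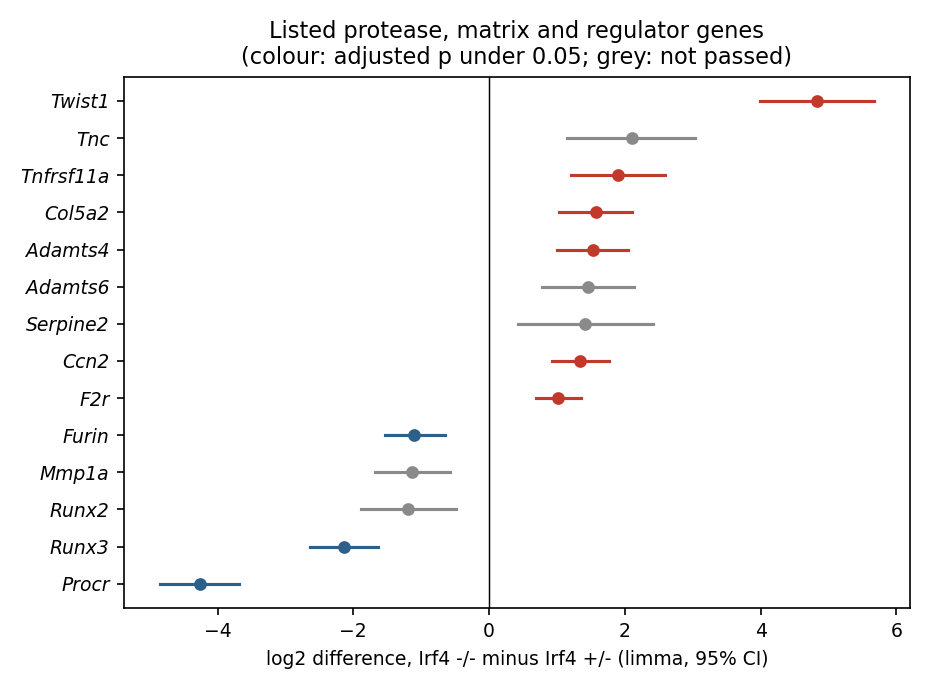
Log2 difference of null minus heterozygous cells with limma's 95% confidence interval for the 14 named genes of the protease, matrix and regulator lists; red and blue genes passed an adjusted p of 0.05 and grey genes did not. Twist1 has the highest and Procr the lowest difference, and Runx2 and Runx3 lie below 0.

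Mmp13 and Spp1 are also made by cells other than T cells, such as macrophages, osteoblasts and fibroblasts, and a bulk RNA sample cannot tell more cells of such a type from more transcript per cell. The cultures were started from sorted naive CD4+ T cells, and how many cells of other types remained after the sort was not measured here. Of 43 markers in 5 lists, for myeloid cells, fibroblasts and osteoblasts, B cells, NK cells and T cells, 4 were named. None of 10 fibroblast and osteoblast markers and none of 6 B cell markers was listed. Itgax, the 1 named of 14 monocyte, macrophage and dendritic cell markers, had lower ratios in null cells, at -2.40, -3.47 and -2.85 against -1.01, -1.95 and -1.77 (difference -1.32, limma adjusted p = 0.123). Of 5 NK cell markers, Klre1 fell by 3.57 on the log2 scale (limma adjusted p = 0.0388, lost whichever of the 6 samples was left out). Its null replicate 2 was listed at exactly 0. Eomes, which activated T cells also express, had 1.41 (adjusted p = 0.13), with heterozygous replicate 3 listed at exactly 0. With 1 sample left out Eomes passed only without null replicate 3. Cd28, the 1 named of 8 T cell markers, had -1.23 (adjusted p = 0.146), with null replicates 1 and 3 listed at exactly 0. Outside the lists, and chosen after their values were seen, Ms4a6d, a gene of myeloid cells, was 11.0-fold and Vpreb1, the gene of a surrogate light chain of B cell precursors, 2.05-fold higher in null cells. The summed level of these lists is not known, since unlisted markers have no named probe, and their part in the Mmp13 and Spp1 values was not tested.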

How the data were processed

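RNA of 3 Irf4 -/- and 3 Irf4 +/- samples was measured on 2-colour arrays without a dye swap, and groups were taken from the sample titles. Per the submitters' processing notes, the tools were Agilent Feature Extraction 10.7 and Partek. The values deposited by the authors are log2 ratios of sample to reference, which the header of the authors' table calls normalized by a method not given in the sources used here. The base and the direction of null over heterozygous were settled from the values, whose mean differences matched log2 of the authors' fold changes to 1.03e-05 for each of 828 listed probes. That ratios are of sample over reference is taken from the dyes. Per the file headers, p-values and signed fold changes (handled as a score) come from a 1-way ANOVA in Partek Genomic Suite 6.6. The methods' test is this test rerun on the averaged values with Benjamini-Hochberg adjustment.

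Symbols, paired with 816 probes, were updated through the RefSeq table of GRCm38.p6 (113 of 689 by a synonym, 31 unmatched). Listed probes of a gene were averaged, and 22621 rows were compared with limma 3.58.1 in R 4.3.3, without covariates, with Benjamini-Hochberg adjustment over all rows. An item of the lists is not reported here. This fit was checked on simulated data with known changes. Members, lists and motifs were chosen with earlier results of these data known. Named were Mmp13, Spp1, Irf4, list genes with a listed probe, the 5 genes most alike by r, and listed neighbours; genes past 16-fold or nearest by distance were named after their values were seen. Dim probes were not filtered and batches not tested, since intensities and scan records were not used here. To check pairing, deviations from group means were correlated between samples with the same number, giving 0.097, -0.0123 and -0.0366.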

Additional observations from a re-analysis of the deposited data

How the results depend on the processing

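The Mmp13 difference of 6.13 on the log2 scale was 6.17 with median centring, 6.09 with quantile normalization and 5.84 to 6.38 with 1 sample left out, and the Spp1 difference of 4.38 was 4.42, 4.26 and 4.23 to 4.62. Treating zeros as missing and the replicate block cannot move these values, since neither gene had a zero and the design is balanced, and with 1 probe each no other probe could be tried. Their groups do not overlap, so leaving out a sample cannot turn the direction. The count past the threshold, 551 of 22621, became 13 with the replicate block, 361 with at least 2-fold change and 30 to 239 with 1 sample left out, where fewer samples are tested. The same-numbered samples did not deviate together, so the numbers are not taken as pairs. The other settings gave 449 to 777. Among 28 further named genes, Irf4 included, 0 turned direction under these settings. Of the 20 that had passed, 19 lost the threshold with the replicate block, leaving Twist1 (adjusted p = 0.0431), 5 with the methods' test (Adamts4, Furin, Col5a2, Tnfrsf11a and Klre1), 2 with quantile normalization, and 1 each with median centring and zeros as missing (Furin and Klre1, the latter with an adjusted p of 0.0822). The cause of these losses was not tested. Adamts6, Serpine2, Tnc and Eomes, which had not passed, each did so in 1 fit with 1 sample left out. Of the 5 genes most alike to Mmp13 and Spp1 by r, distance gave 0 and 1 again.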
